A study of Paulownia elongata with 2 samples.

Results

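In leaves of salt-watered Paulownia elongata, a fast-growing tree, 131 of 58997 assembled genes stood at least 3-fold above the controls in both salt libraries while still being detectable in both control libraries. They were chosen by their values in the authors' deposited normalized matrix, which holds library-scaled counts. The lower of the 2 salt libraries had to reach 3 times the higher control library and a normalized count of 30, and both control libraries had to lie above 0. An assembled gene was left out when its assembly component, named by what precedes the bar in its ID, also held an assembled gene with a mean of at least 20 that lay at least 1.5-fold lower in salt. That condition removed 1 of 132. The 131 members came from 125 components of 39968. Their difference between salt and control chose them, so it is given below as a description and is not tested on them.

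The salt libraries, SS1 and SS2, came from leaves of 3-year-old potted trees that received 125 mM NaCl, 1.5 L once per 24 hours, over 10 days. The control libraries, AC1 and BC1, came from leaves of trees watered with the same volume of plain water, and the labels call them WT. All pots stood in a greenhouse in a mix of peat moss, perlite and limestone. Whether SS1 and SS2, or AC1 and BC1, stem from different plants is not given, and the labels name no clone, transgene or batch. The salt record calls its libraries SS2 and SS4, whereas its files are SS1 and SS2, and the files were used under the record that holds them. Library totals ran from 3969495 to 4384492 expected counts in salt and from 3752359 to 4682184 in control. Neither pair of libraries was 1 library deposited again, since a chi-square statistic of their counts was 30.2 per degree of freedom for the salt pair and 84.9 for the control pair, where counting noise alone gives about 1.

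Salt in the soil limits water uptake by the roots and, as sodium and chloride build up in the leaf, disturbs ion balance and photosynthesis. Leaves are known to answer with abscisic acid signalling, closed stomata, ion transport into the vacuole, compatible solutes, antioxidant enzymes and protective proteins such as dehydrins. Whether any member belongs to these groups was not analysed here, since no annotation or sequence of the IDs was used. The members are therefore ordered by level, by size of the difference, by agreement between libraries and by structure of the assembly.

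As a set, the members took a larger part of the salt libraries than of the control libraries. They held 2.32% of the expected counts in SS1 (95% Wilson interval 2.31 to 2.34) and 1.45% in SS2 (1.44 to 1.47), against 0.162% in AC1 (0.158 to 0.165) and 0.181% in BC1 (0.177 to 0.185). The intervals cover counting error only, since reads without molecular identifiers are not independent molecules. The mean share was 1.89% ± 0.613 (SD, n = 2) in salt and 0.171% ± 0.0137 (SD, n = 2) in control. In TPM, which scales by length and to a fixed total per library, the members summed to 21686 in SS1 and 14411 in SS2, against 1780 in AC1 and 1714 in BC1. SS1 thus stood above SS2, while the control libraries lay close together. In bulk leaf RNA, more RNA per cell and more cells that express a gene cannot be told apart.

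**Figure D1:**
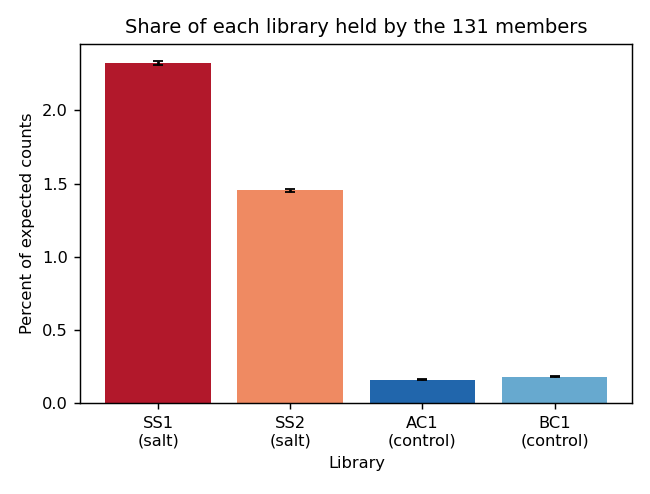
Percent of each library's expected counts that fell on the 131 members, for the salt libraries SS1 and SS2 and the control libraries AC1 and BC1, with 95% Wilson intervals as error bars. SS1 lies highest at 2.32%, SS2 follows at 1.45%, and both controls lie under 0.2%.

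Levels of the members spanned more than 2 orders of magnitude in salt. The normalized count ran from 30.1 to 5364 in SS1 with a median of 198, and from 30.7 to 7729 in SS2 with a median of 153. In the control libraries it ran from 1.12 to 1620 in AC1 with a median of 16.3, and from 1.16 to 1744 in BC1 with a median of 12.8. In 71 of the 131 members both salt libraries reached 100, and in 13 both reached 1000. A few members carried much of the total. The 10 highest by salt mean held 46.7% of the members' normalized counts in SS1 and 46.3% in SS2, against 54.7% in AC1 and 62.1% in BC1.

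**Figure D2:**
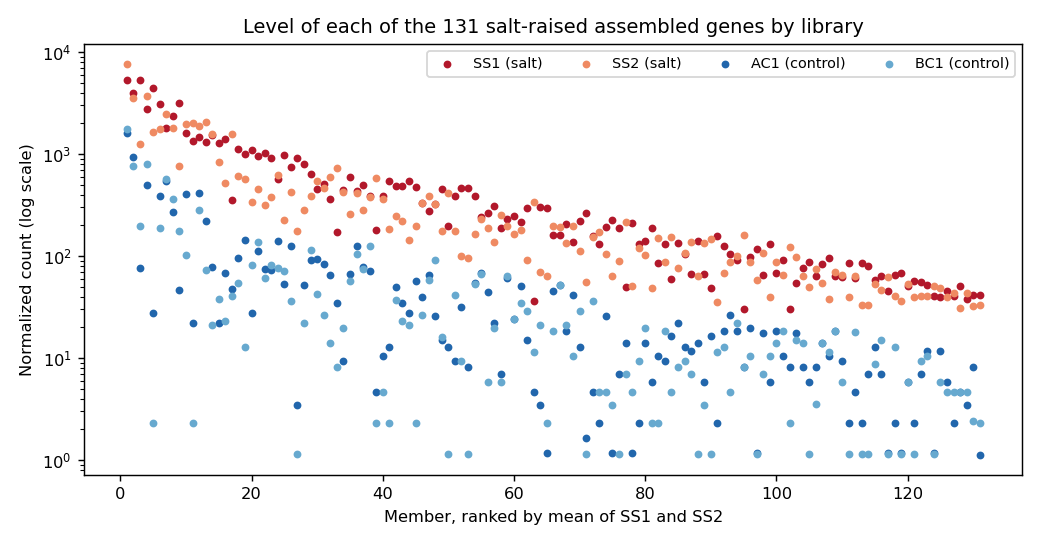
Normalized count (log scale) of each of the 131 members in the salt libraries SS1 and SS2 and the control libraries AC1 and BC1, with members ranked from the highest to the lowest mean of SS1 and SS2. The salt points of a member always lie above its control points because the rule asks for it, and the control points scatter widely among members of similar salt level.

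The member with the highest salt mean was TR31494|c0_g1, an assembled gene of 5 isoforms that is alone in its component. It had normalized counts of 5364 in SS1 and 7729 in SS2, against 1620 in AC1 and 1744 in BC1. Its mean was 6546 ± 1672 in salt and 1682 ± 88.3 in control (SD, n = 2 each), a ratio of 3.89. It was an abundant leaf transcript without salt, at 297 TPM in control on average, and lay close to the rule's lower limit. AC1 held 1391 and BC1 1502 of its expected counts. Pooled over libraries, salt stood at 3.85 times control, and counting error alone allows 3.70 to 4.003 (exact 95% interval).

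The member with the largest gap between its lower salt and higher control library was TR7136|c0_g1, an assembled gene of 1275 bases with 1 isoform, also alone in its component. It had normalized counts of 1334 in SS1 and 2040 in SS2, against 22.1 in AC1 and 2.32 in BC1. Those control values stand for 19 and 2 expected counts. The salt mean was 1687 ± 499.6 and the control mean 12.2 ± 14.0 (SD, n = 2 each), a 138-fold ratio. Even the higher control library lay 60.3-fold below the lower salt library. Pooled over libraries, salt stood at 136 times control, for which counting error alone allows 89.0 to 220 (exact 95% interval). The interval does not cover the 9.52-fold gap between AC1 and BC1, nor that a large ratio chose this member. Per length, its level averaged 413 TPM in salt and 2.36 TPM in control. Both named members had SS2 above SS1.

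Among the 10 members highest in salt, the largest ratio of salt mean to control mean was in a member of 1047 bases, alone in its component, with 4486 in SS1 and 1655 in SS2, against 27.9 in AC1 and 2.32 in BC1. Its salt mean was 203 times its control mean, and at 1003 TPM it held rank 3 in salt per length. The member highest per length, 743 bases long, differed far less, with 3994 in SS1 and 3565 in SS2, against 944 in AC1 and 759.6 in BC1, a ratio of 4.44. Its libraries lay close together within each treatment. Another pair among the 10 differed strongly between the salt libraries. The third by salt mean had 5297 in SS1 and 1261 in SS2, against 75.7 in AC1 and 197 in BC1. The ninth had 3173 in SS1 and 767 in SS2, against 46.6 in AC1 and 177 in BC1. In both of these SS1 lay more than 4-fold above SS2 and BC1 above AC1.

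The size of the difference was graded. The ratio of salt mean to control mean had a median of 9.97 and quartiles of 6.14 and 21.1, from 3.37 to 236. It was under 5 in 17 members, at least 10 in 63 and at least 30 in 24. On the log2 scale the median was 3.32 for the members, beside -0.06 over the 33278 assembled genes above 0 in all 4 libraries. Comparing only the lower salt with the higher control library, the median ratio was 4.46. By that measure 52 members lay under 4-fold and 29 reached 10-fold.

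**Figure D3:**
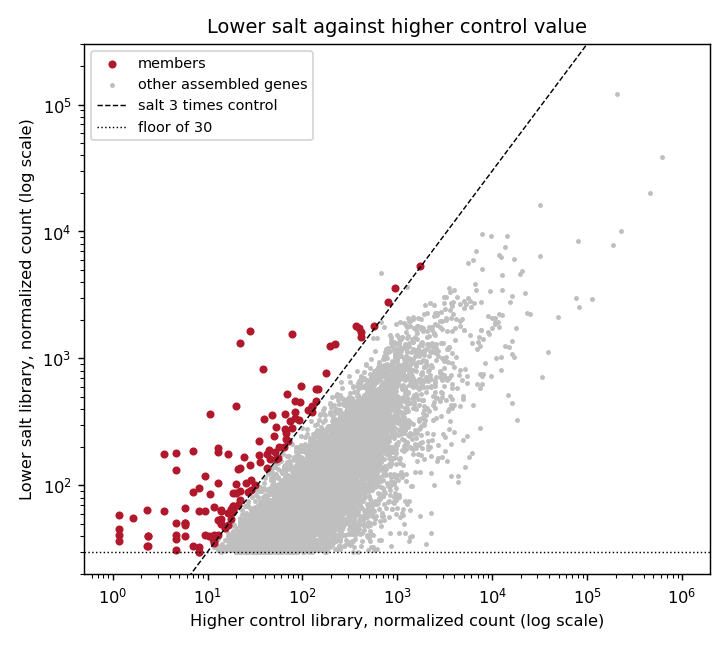
Lower of the 2 salt libraries against the higher of the 2 control libraries, in normalized counts on log scales, for the 11690 assembled genes that reach 30 in both salt libraries and lie above 0 in both controls. Members lie above the dashed line at 3 times the control value and the dotted line at the floor of 30, and the single other point above the dashed line, at a lower salt value of 4746, is the assembled gene removed by the component condition.

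Near the limits, members and non-members differed little. The 5 members closest above the ratio limit had ratios of 3.01 to 3.05. The closest of them had 49.1 in SS1 and 148 in SS2, against 16.3 in AC1 and 1.16 in BC1. The 5 assembled genes closest below it had ratios of 2.97 to 2.99, the nearest with 55.4 in SS1 and 48.8 in SS2, against 16.3 in AC1 and 11.6 in BC1. At the floor, the 5 members closest above had a lower salt value of 30.1 to 33.4, and the 5 assembled genes closest below had 28.0 to 29.3. The assembled gene that the component condition removed had 5028 in SS1 and 4746 in SS2, against 498 in AC1 and 668 in BC1.

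Many ratios rested on few control reads. In 34 members at least 1 control library held under 3 expected counts, and in 10 neither held more than 2. Both control libraries held at least 10 expected counts in 58 members. Of the 10 members with the largest gap between lower salt and higher control library, 4 had 1 read in each control library. One of these had 45.1 in SS1 and 62.3 in SS2, against 1.16 in both AC1 and BC1.

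The members differed between the 2 salt libraries more often than the assembled genes that reach the same floor, a set that includes the members and was not matched to them on abundance. Its median normalized count was 116 in SS1 and 123 in SS2, below the members' medians of 198 and 153. SS1 was at least 2 times SS2 in 39 members (29.8%), beside 4.59% of the 11735 assembled genes that reach 30 in both salt libraries. SS2 was at least 2 times SS1 in 12 members (9.16%), beside 7.51%. The remaining 80 members had salt libraries within 2-fold of each other. SS1 lay above SS2 in 85 of 131 members (64.9%), beside 43.6% of the 11735. The median log2 ratio of SS1 to SS2 was 0.36 for the members and -0.09 for the wider set. When AC1 was left out of the rule, which then found 692 members, the share with SS1 at least 2 times SS2 was 17.2%. These shares come from 1 pair of libraries, so they describe SS1 and SS2 and carry no test. The mirror set lower in salt, described below, also had salt libraries at least 2-fold apart in 45 of 145 (31.0%).

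**Figure D4:**
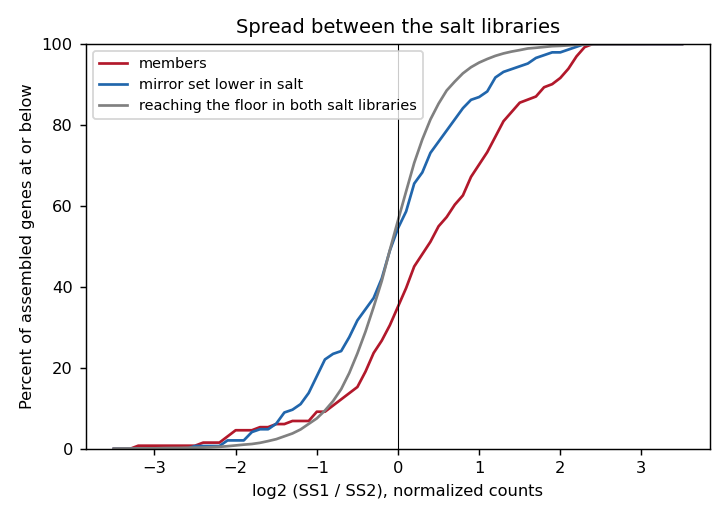
Cumulative percent of assembled genes by log2 ratio of SS1 to SS2 in normalized counts, for the 131 members, for the 145 assembled genes of the mirror set lower in salt and for the 11735 that reach the floor of 30 in both salt libraries. The members' curve lies to the right of both others over most of its course, with a median of 0.36 against -0.08 for the mirror set and -0.09 for the wider set.

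The 39 members with the higher value in SS1 had a median of 393 in SS1 and 137 in SS2, against 14.0 in AC1 and 11.6 in BC1. The most uneven of them, an assembled gene of 4 isoforms, had 923 in SS1 and 175 in SS2, against 3.49 in AC1 and 1.16 in BC1. It also had the largest ratio of salt mean to control mean, 236. The 12 members with the higher value in SS2 had a median of 63.3 in SS1 and 188 in SS2, against 12.2 in AC1 and 5.81 in BC1. The most uneven of these had 36.4 in SS1 and 342 in SS2, against 4.66 in AC1 and 11.6 in BC1. Uneven members reached larger mean ratios. The median ratio of salt mean to control mean was 14.0 in the 39 and 17.8 in the 12, against 7.09 in the 80 whose salt libraries lay within 2-fold. The rule bounds only the lower salt library, so the higher one can raise the mean freely.

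The control libraries were uneven as well. AC1 was at least 2 times BC1 in 45 members (34.4%), beside 13.6% of the 11690 assembled genes that reach the floor in salt and lie above 0 in both controls. BC1 was at least 2 times AC1 in 18 members (13.7%), beside 12%. The members' control levels were far lower than those of the wider set, whose median was 115 in AC1 and 116 in BC1, and the part of the low counts in this spread was not tested. The widest gap between controls was in a member with 472 in SS1 and 200 in SS2, against 57.0 in AC1 and 2.32 in BC1. The widest in the other direction had 156 in SS1 and 153 in SS2, against 4.66 in AC1 and 36.0 in BC1.

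The mirror of the rule, with salt and control exchanged, found 145 assembled genes lower in salt and still detectable there. Of the members, 51 (38.9%) had salt libraries at least 2-fold apart, and of the mirror set, 50 (34.5%) had control libraries that far apart. These are different pairs of libraries with different backgrounds, so the shares are not compared. In the salt libraries themselves, 45 of the mirror set (31.0%) were at least 2-fold apart, so such spread was not particular to the members. SS1 was the higher in 19 of the 45 and SS2 in 26. The mirror set's salt counts were low, with a median of 30.1 in SS1 and 28.9 in SS2. In the mirror set AC1 was at least 2 times BC1 in 12 and BC1 at least 2 times AC1 in 38. A closer relative of the members, 16 assembled genes that meet the same limits but have a control library at 0, had SS1 at least 2 times SS2 in 8 and SS2 at least 2 times SS1 in 0. None of these counts was tested.

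The members were shorter at the median than the assembled genes that reach the same floor, a difference that was not tested. Their median assembled length was 1151 bases with quartiles of 798 and 1606, against 1468 bases with quartiles of 1044 and 2000 for the 11735. The mirror set had a median of 1318 bases. All assembled genes had a median of 410 bases, most of them at low level. Of the members, 80 (61.1%) had at least 1000 bases, beside 77.3% of the wider set, and 18 (13.7%) had at least 2000 bases, beside 25.0%. The longest member, of 4162 bases, had 434 in SS1 and 413 in SS2, against 126 in AC1 and 105 in BC1. The shortest, of 333 bases, had 326 in SS1 and 325 in SS2, against 25.7 in AC1 and 92.6 in BC1. Salt libraries agreed closely in both.

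Single-isoform assembled genes made up 54 of the 131 members (41.2%), beside 36.5% of the wider set and 55.2% of the mirror set. At least 5 isoforms were assembled for 14 members (10.7%), beside 17.6% of the wider set. The most complex member, with 27 isoforms, had 1008 in SS1 and 571 in SS2, against 146 in AC1 and 12.8 in BC1. Reads shared with other assembled genes can leave an expected count that is not whole. This was so in at least 1 library for 19 members (14.5%), beside 8.67% of the wider set, where whole means within 0.005 of an integer. For these 19 the split of reads between similar assembled genes is uncertain.

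The average length of the expressed isoforms lay apart between treatments in part of the members, as it did in part of the wider set. RSEM gives each assembled gene a length averaged over its isoforms by their abundance, a value the rule did not use. Among the 77 members with several isoforms, this length was longer in both salt libraries than in both controls in 25 (32.5%), beside 16.8% of 7434 assembled genes with several isoforms that reach the floor in salt and lie above 0 in both controls. It was shorter in 13 (16.9%), beside 21.3%. With at least 10 expected counts in every library, 14 of 42 members were longer (33.3%), beside 16.7%, and 9 were shorter (21.4%), beside 21.4%. Most shifts were small. The median log2 difference in length was 0.001 among the 77, with quartiles of -0.02 and 0.06.

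The largest shift with more than 10 reads in every library was in a member of 3 isoforms, with a mean isoform length of 1610 bases in SS1 and 1677 in SS2, against 1082 in AC1 and 1305 in BC1. Its normalized counts were 454 in SS1 and 548 in SS2, against 94.3 in AC1 and 43.0 in BC1. A larger apparent shift, to 671 bases in SS1 and 634 in SS2 against 232 in AC1 and 292 in BC1, rested on 1 and 2 control reads. The strongest shortening was in a member of 2 isoforms, with 1739 bases in SS1 and 1458 in SS2, against 2125 in AC1 and 1894 in BC1. The smallest two-sided p of an exact permutation test with 2 libraries against 2 is 0.333, so that test could not pass a threshold of 0.05 for a single shift, and no other test was run on the lengths.

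**Figure D5:**
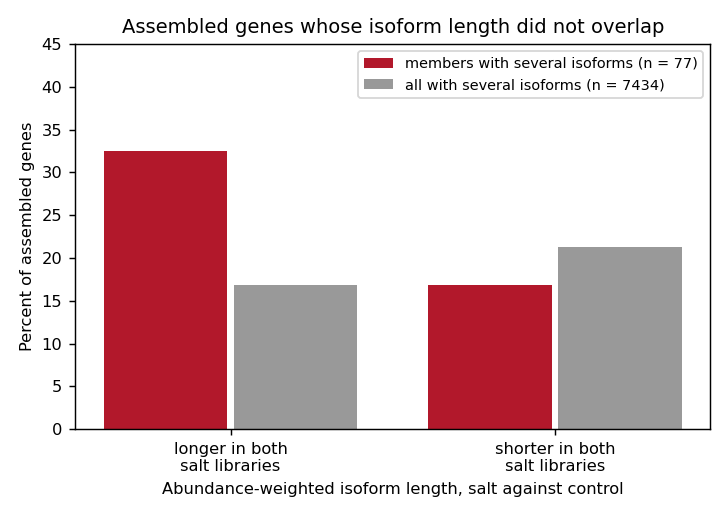
Percent of assembled genes with several isoforms whose abundance-weighted isoform length was longer, or shorter, in both salt libraries than in both control libraries, for the 77 members (left bar of each pair) and for all 7434 at the same floor (right bar). Longer lengths make up 32.5% of the members and 16.8% of the wider set, and shorter lengths 16.9% and 21.3%.

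Components held few members each. Of the 125 components, 120 held 1 member, 4 held 2 and 1 held 3. Members of a shared component could differ widely in size of the difference. In 1 component of 9 assembled genes, a member had 119 in SS1 and 58.7 in SS2, against 1.16 in both AC1 and BC1. Another member there had 1109 in SS1 and 338 in SS2, against 27.9 in AC1 and 82.5 in BC1. The former held 1 expected count in each control library, so the size of its difference is imprecise. In a component of 3, both members had SS1 far above SS2, with 461 in SS1 and 100.3 in SS2 for 1 of them and 797 in SS1 and 286 in SS2 for the other. The component with 3 members gave similar ratios of salt mean to control mean, from 4.95 to 7.18. Whether members of a component share sequence was not examined here, and they were not taken as independent.

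Other assembled genes of the same components lay above the controls more often than the background, though this too was not tested. The members' components held 174 other assembled genes, of which 48, from 29 components, had a mean normalized count of at least 20. Relatives from the same component were not taken as independent. Both salt libraries lay above both controls in 21 of the 48 (43.8%), beside 21.9% of all 15247 assembled genes with such a mean. They lay at least 1.5-fold above in 12 (25%), beside 5.89%. Both lay below in 5 (10.4%), beside 18.2%. The last count is limited by the rule, which bars relatives that are at least 1.5-fold lower in salt. The other shares and the median that follows come from the same chosen components, whereas the background was not chosen this way. The median log2 ratio of salt mean to control mean was 0.35 for these relatives and 0.005 for all.

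Across all assembled genes, edgeR's quasi-likelihood test with Benjamini-Hochberg adjustment called 0 of 20016 at an adjusted p under 0.05 (0%), and so 0 of the 131 members, all of which were tested. The smallest adjusted p was 0.451 among all and among the members alike. At an unadjusted p under 0.05 in edgeR, 131 of the 131 members were higher in salt, beside 783 of all tested (3.91%). DESeq2 called 104 members as higher in salt at its adjusted threshold, beside 0.842% of those with an adjusted p. The counts of called members moved in some fits with 1 library left out. The closing section gives these beside the counts over all assembled genes. The rule used this same contrast, so nothing is read from these counts. The edgeR median log2 fold change was 3.24 for the members and -0.05 for all tested.

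The authors' deposited table of differential genes lists 71 of the members as higher in salt. That is 54.2% of the members and 22.0% of the 322 assembled genes listed as higher in salt, beside 0.55% of all 58576 in the authors' longer deposited table. The list and the rule used the same contrast in the same libraries, so nothing is read from this overlap. Members inside this list more often had salt libraries close to each other than those outside. Salt libraries lay at least 2-fold apart in 7 of the 71 inside and in 44 of the 60 outside. The list was made from these same libraries, so this split is not independent of their spread and is only a description. By salt mean over control mean, which the higher salt library can raise freely, the ratios were not smaller outside the list. The median ratio of salt mean to control mean was 8.50 for the 71 inside and 11.2 for the 60 outside. In the authors' longer deposited table, the posterior probability of equal expression of these 60 ran from 0.000527 to 0.982 with a median of 0.0989.

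The authors' deposited Cuffdiff table has loci on 99 of the members, 131 loci in all, of which 130 were tested. It marks 19 of these as significant, beside 0.87% of all tested loci, with q-values up to 0.0346 in the authors' deposited table. The 19 loci lie on 18 members, of which 8 are also among the 71 above. That table does not say which treatment its conditions are, so no direction was read. Cuffdiff split 23 members into several loci, up to 5 for 1 member. The edgeR, DESeq2 and authors' results all come from the same 4 libraries. Values of those libraries also chose the members, so nothing is read from these overlaps.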

How the data were processed

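RNA-seq of leaves gave 2 salt and 2 control libraries. Per the submitters' processing notes, RSEM 1.3.0, Bowtie2 2.1.0 and TopHat2 2.0.9 were used, and Cuffdiff 2.2.1 beside Cufflinks 2.1.1. The sources used here do not give the assembler, its settings or the read filters. Per the file headers, the authors' RSEM files give an expected count, a TPM value and a length for each assembled gene. The deposited normalized matrix is a signal equal to the expected counts times 1 constant per library (0.792 for SS1, 0.904 for SS2, 1.164 for AC1 and 1.161 for BC1). The deposited comparison tables give a posterior probability and a fold ratio of control over salt, and the deposited Cuffdiff table gives p-values and q-values.

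Expected counts were rounded and tested across all assembled genes with edgeR 4.0.16 (TMM, filterByExpr, quasi-likelihood test, Benjamini-Hochberg). DESeq2 1.42.0 and limma 3.58.1 on log2(TPM + 1) were alternatives, as were other scalings, filters and limits and each library left out. Scripts ran in R 4.3.3 and Python 3.11.15. The fits were tested on simulated counts whose spread was fixed and not taken from these libraries, and the rule on a made matrix. That test does not show how the fits perform at the spread of these libraries. P-values measure the spread between libraries, which may be technical. Named IDs are the member with the highest salt mean and the one with the largest ratio of lowest salt to highest control; other members were described by their place in an order, without IDs. The members, limits and orders were chosen with earlier results of these data known. The splits by SS1 and SS2, by isoform length, by component relatives and by the authors' list were chosen after their values were seen, among other features compared (length, isoform number, component size, control spread and counts that are not whole), all of which are given.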

Additional observations from a re-analysis of the deposited data

How the results depend on the processing

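The number of members, 131, moved when a library was left out, with some scalings and with the limits, and most without AC1. It was 124 with TMM scaling, 131 with RLE, 97 when both controls had to hold at least 3 expected counts, 147 without a condition on the controls and 132 with all components kept. It became 267 with library totals, 201 with TPM for the ratio, 319 at a ratio of at least 2, 56 at a ratio of at least 5, 201 at a floor of 10 and 71 at a floor of 100. Library totals scale salt up against control relative to the deposited matrix. Leaving out a library relaxes the rule and gave 273 to 692 members (273 without SS1, 365 without SS2, 692 without AC1 and 305 without BC1). Without AC1, the share of members with SS1 at least 2 times SS2 was 17.2%, and at a ratio of at least 2 it was 19.1%, against 29.8%. SS1 lay above SS2 in 55.9% to 67.6% of members over 13 alternatives. The median log2 ratio of salt to control ran from 2.15 to 4.44. The median length of the members ran from 937 to 1359 bases over 15 alternatives. The share of members with longer isoform length in salt ran from 27.5% to 43.3% over 12 alternatives.

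The count of called members was 0 in edgeR with RLE, library totals, no filter, a mean of at least 10 counts, an adjusted p under 0.1 and the replicate block, and 0 in the 3 limma fits on TPM. It was 104 with DESeq2, which called 345 of all assembled genes, 168 of them higher in salt. Here and in the fits without a library, counts over all assembled genes cover both directions, whereas every called member was higher in salt. Leaving out a library gave 0 to 87 called members and 0 to 1245 called assembled genes in edgeR (87 and 1245 without AC1, 68 and 477 without BC1, 0 and 0 without SS1 or SS2), and 14 to 98 members and 38 to 994 assembled genes in DESeq2 (98 and 994 without AC1, 76 and 296 without BC1, 14 and 38 without SS1, 34 and 86 without SS2). With 1 library in a treatment, that library is assumed to vary like the other treatment. A replicate block, which takes AC1 and SS2 as number 1, called 0 members. Deviations of same-numbered libraries correlated at 0.0934 and the numbers were not taken to pair them. The DESeq2 fits without a library, the settings for length, isoform length and 2-fold spread and the minimum of 10 counts were chosen after seeing the data. The depth leaves 34 members with under 3 expected counts in a control library, so their ratios are imprecise.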
